A study of Mus musculus with 48 samples.

Results

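RNA levels in the lysates of Ago2 knockout embryonic stem cells were set directly against those of cells labelled Upf1 knockout, as a contrast of 2 RNA decay pathways in the same kind of cell. The libraries were chosen by their columns in the authors' count table, namely the input (whole lysate) libraries of these 2 genotypes in experiments 3 and 4, which gave 12 of the 48 libraries of the series, 3 per genotype and experiment. All cells were mouse embryonic stem cells (strain label 129S6/SvEvTac) with a GFP reporter labelled GFP_5xT71BS and a stably transfected FLAG-Cas9 gene, grown with serum and LIF on gelatin. Both knockouts were made in HA-Tnrc6a cells, in which the endogenous Tnrc6a protein has an HA tag, so tag, reporter and Cas9 are common to all 12 libraries. The other lysates of the series, 6 from HA-Tnrc6a cells and 6 from untagged cells, serve here only to show on which side of the contrast a gene moved. The number of clones behind each knockout is not given in the sources used here, so genotype and clone cannot be told apart. The 3 libraries of a group came from triplicate dishes, and p-values measure the spread between such dishes.

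Ago2 is the Argonaute protein that carries a microRNA to partly complementary messenger RNAs. The Tnrc6 (GW182) proteins bind Argonaute and bring deadenylases, after which the message is repressed and degraded. Upf1 is the RNA helicase at the centre of nonsense-mediated decay, which removes messages whose translation ends too early, including host transcripts of small nucleolar RNAs (snoRNAs), mRNAs with upstream reading frames such as that of Atf4, and mRNAs of several decay factors themselves. In mouse embryonic stem cells the dominant microRNAs belong to the miR-290 and miR-302 clusters, whose members share a seed, the bases that pair with targets. The target lists used below hold genes reported as targets of these microRNAs and of let-7, and no search for seed matches was made here. The mature sequences are shown from RefSeq (GRCm38.p6), 5′ to 3′ with the seed, bases 2 to 8, in capitals.
miR-291a-3p: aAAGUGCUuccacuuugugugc
miR-294-3p: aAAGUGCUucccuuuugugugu
miR-295-3p: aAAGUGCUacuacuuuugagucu
miR-302b-3p: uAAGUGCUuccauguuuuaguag
miR-302d-3p: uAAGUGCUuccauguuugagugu
let-7a-5p: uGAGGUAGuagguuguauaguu
The first 5 share the seed AAGUGCU, the first 3 from chromosome 7 and the next 2 from chromosome 3, while let-7a-5p, here from the copy on chromosome 13, has the seed GAGGUAG. MicroRNA levels were not measured in these libraries.

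Total counts of the 12 libraries lay between 16195613 and 37179105, with 16195613 to 19595405 in experiment 3 and 26647238 to 37179105 in experiment 4. Counts of replicate pairs had a chi-square of 2.07 to 6.94 times its degrees of freedom, above sampling noise in all 12 pairs, so no library was counted as a repeat of another. The highest values were those of replicate 3 of the Ago2 knockout in experiment 3. Among the comparison lysates, HA-Tnrc6a replicate 3 of experiment 3 stood further apart, at 28.9 and 34.3. Without it, fold changes against HA-Tnrc6a lysates of the genes named here moved by a median of 0.01 on the log2 scale and by at most 0.31, for Wnt8a. Levels are given as counts scaled to library size (CPM), scaled by TMM over the 24 input libraries and not divided by transcript length. Markers of embryonic stem cells were present in all 12 libraries: the summed CPM of 8 markers, among them Pou5f1, Sox2 and Nanog, was 7825 to 8291 in Ago2 knockout and 6950 to 7027 in lysates labelled Upf1 knockout in experiment 3, and 7344 to 7468 against 6221 to 6338 in experiment 4. In lysates of whole cultures, fewer cells of a type and less RNA per cell cannot be told apart.

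The targeted genes came first. Ago2 (ENSMUSG00000036698, chromosome 15, 73101625 to 73184947, GRCm38.p6) was at 108, 103 and 104 CPM in the Ago2 knockout libraries of experiment 3 and at 150, 144 and 138 CPM in those of experiment 4. Lysates labelled Upf1 knockout had 309, 294 and 314 CPM in experiment 3 and 513, 468 and 525 CPM in experiment 4. The groups did not overlap, and the averaged log2 fold change (Ago2 knockout over labelled Upf1 knockout, where 1 unit is 2-fold) was -1.67 ± 0.03 (SE, n = 3 per group and experiment, edgeR quasi-likelihood adjusted p = 2.22e-43). Against HA-Tnrc6a lysates the value was -1.20 in Ago2 knockout and 0.48 in labelled Upf1 knockout, so the difference between the knockouts held both a lower level in the first and a higher level in the second.

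Upf1 (ENSMUSG00000058301, chromosome 8, 70331493 to 70353423) was not lower in the cells labelled Upf1 knockout. Its level there was 133, 135 and 136 CPM in experiment 3 and 151, 155 and 159 CPM in experiment 4, all above the Ago2 knockout values of 89.5 to 94.8 and 99.5 to 103 CPM. The contrast was -0.58 ± 0.03 (SE, n = 3 per group and experiment, edgeR quasi-likelihood adjusted p = 4.68e-24). Because mRNA does not show the loss of Upf1, the words labelled Upf1 knockout are used throughout. The annotation has Cers1 and Gdf1 overlapping Upf1, and whether reads were counted by strand is not given in the sources used here, so its counts are uncertain. Tnrc6a (ENSMUSG00000052707, chromosome 7, 123031101 to 123195296), the tagged protein's own mRNA, was higher in Ago2 knockout, at 109, 114 and 108 CPM against 77.3, 77.4 and 75.2 CPM in experiment 3 and 136, 144 and 133 against 97.4, 95.1 and 88.6 CPM in experiment 4, a log2 fold change of 0.54 ± 0.03 (SE).

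Most of the transcriptome differed between these knockouts. In edgeR's quasi-likelihood test of 19419 genes, 12104 (62.3%) had an adjusted p under 0.05, 6098 (31.4%) higher in Ago2 knockout and 6006 (30.9%) higher in labelled Upf1 knockout. By at least 2-fold, 684 genes (3.52%) were higher in Ago2 knockout and 776 (4%) in labelled Upf1 knockout. The libraries of the 2 genotypes were apart in the same direction in both experiments for 7643 genes (39.4%). With so large a background, a share of called members near 31% in either direction is no feature of a gene list, and most changes were small. When the experiment was left out of the model, 6940 genes passed. Against HA-Tnrc6a lysates, 19743 genes were tested, of which 3316 were higher and 2860 lower in Ago2 knockout, while 5810 were higher and 5486 lower in labelled Upf1 knockout.

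**Figure D1:**
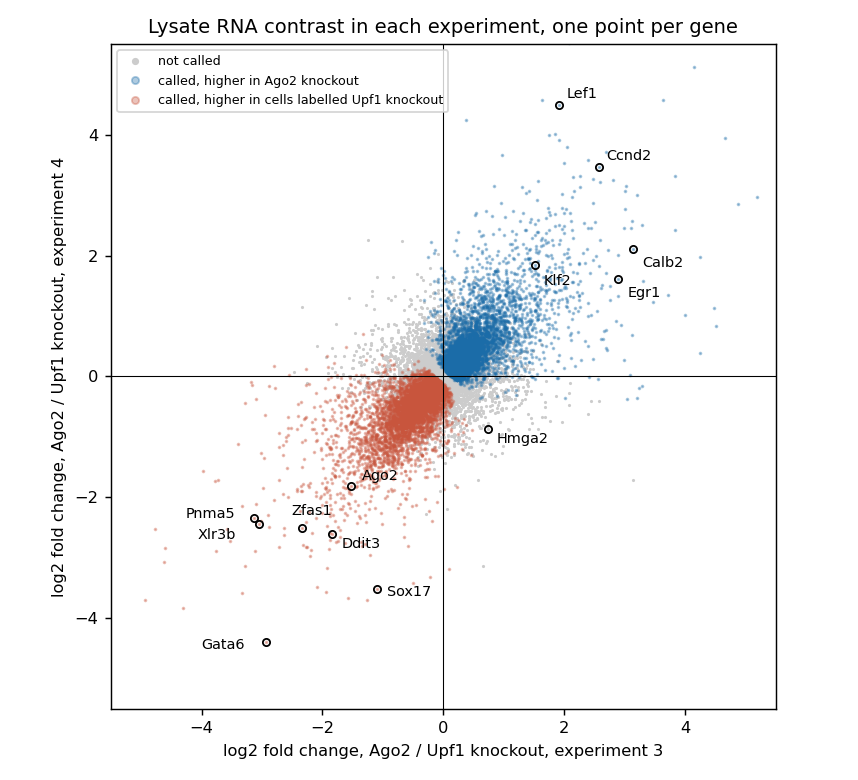
Each point is 1 of the 19419 genes tested, with its log2 fold change (Ago2 knockout over labelled Upf1 knockout) in experiment 3 on the x axis and in experiment 4 on the y axis. Blue and red genes passed an adjusted p of 0.05 in the averaged contrast, 8 genes lie outside the axes, and Hmga2 is an example with opposite signs.

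The 12 abundant named genes that were highest in labelled Upf1 knockout held noncoding RNAs, stress genes and X-linked genes. Zfas1 (ENSMUSG00000074578, chromosome 2, 167062934 to 167065862), a noncoding host transcript of snoRNAs, stood at 421, 437 and 390 CPM in the lysates labelled Upf1 knockout of experiment 3 and at 258, 262 and 265 CPM in experiment 4. In Ago2 knockout it was at 85.2, 84.6 and 77.0 CPM and at 46.0, 48.6 and 44.4 CPM, so each labelled Upf1 knockout library was above each Ago2 knockout library. The log2 fold change was -2.42 ± 0.03 (SE, n = 3 per group and experiment, edgeR quasi-likelihood adjusted p = 5.19e-50). Zfas1 overlaps Znfx1 in the annotation. Snhg5 (chromosome 9, 88521052 to 88522897), another snoRNA host, was at 315 to 336 CPM in all 6 libraries labelled Upf1 knockout and at 73.2 to 87.9 CPM in the 6 of Ago2 knockout, a log2 fold change of -2.00 ± 0.03 (SE). Pvt1, a noncoding RNA next to Myc, followed at -2.12 ± 0.07 (SE), with 31.2 to 65.5 CPM against 9.06 to 12.6 CPM.

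Ddit3, which encodes the stress transcription factor CHOP, was at 41.6, 44.2 and 43.6 CPM in experiment 3 and 57.0, 58.6 and 59.2 CPM in experiment 4 in labelled Upf1 knockout, against 12.6, 12.5 and 10.8 CPM and 10.1, 8.80 and 9.90 CPM in Ago2 knockout. The groups were far apart in both experiments, and the log2 fold change was -2.22 ± 0.05 (SE, n = 3 per group and experiment, edgeR quasi-likelihood adjusted p = 1.64e-38). Ddit3 overlaps Mars1 and Mbd6 in the annotation. Rassf1 (chromosome 9, 107551434 to 107562267), a tumour suppressor gene, was at 55.1 to 62.7 CPM against 14.4 to 15.6 CPM, a log2 fold change of -1.97 ± 0.04 (SE) that was nearly equal in the experiments (-1.98 and -1.95). Txnip, which encodes a thioredoxin inhibitor, was at -2.03 ± 0.03 (SE). It reached 859 to 924 CPM in experiment 3 in labelled Upf1 knockout, against 188 to 197 CPM, and overlaps the antisense gene Gm15441. Rapgef3 (-2.02), which encodes an exchange factor for Rap proteins, Rin1 (-2.02), which encodes an effector of Ras, and Pea15a (-1.92), which encodes an adaptor of ERK, completed this group apart from 3 X-linked genes.

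The X-linked genes were Xlr3b (-2.75 ± 0.08, SE), Pnma5 (-2.74 ± 0.07) and Xlr3a (-2.57 ± 0.06). Pnma5 (chromosome X, 73033981 to 73039721) was at 50.6 to 57.7 CPM in labelled Upf1 knockout and at 5.14 to 6.998 CPM in Ago2 knockout in experiment 3, and at 28.6 to 31.8 against 5.36 to 7.06 CPM in experiment 4. Here both knockouts moved away from HA-Tnrc6a lysates, with -1.21 in Ago2 knockout and 1.52 in labelled Upf1 knockout. For Xlr3b and Xlr3a the larger part lay in Ago2 knockout, at -2.14 and -2.04 against 0.61 and 0.54. Xlr3a and Xlr3b are near-identical copies, so the split of reads between them is uncertain. Among genes with predicted or clone names, 2410006H16Rik, whose locus holds Snord49a, Snord49b and Snord65, was at -2.56 ± 0.04 (SE) and Gm27286 at -2.54 ± 0.07.

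In the other direction, Lef1 (chromosome 3, 131110297 to 131224357), a transcription factor of Wnt signalling, had the largest averaged difference among the abundant named genes. It was at 25.9, 30.4 and 33.7 CPM in Ago2 knockout and 7.98, 8.97 and 6.90 CPM in labelled Upf1 knockout in experiment 3, and at 5.15, 4.94 and 3.81 CPM against 0.196, 0.0746 and 0.291 CPM in experiment 4. The groups did not overlap, and the log2 fold change was 3.20 ± 0.14 (SE, n = 3 per group and experiment, edgeR quasi-likelihood adjusted p = 5.82e-26). It differed between the experiments, at 1.91 and 4.49, with few counts in labelled Upf1 knockout in the latter, and with the experiments not told apart the call was lost (edgeR quasi-likelihood adjusted p = 0.0868). Ccnd2 (chromosome 6, 127125162 to 127152188), which encodes cyclin D2, was at 12.3, 13.5 and 11.7 CPM against 2.49, 1.59 and 2.14 CPM in experiment 3 and at 33.1, 30.8 and 32.6 CPM against 2.58, 3.84 and 2.44 CPM in experiment 4. All Ago2 knockout libraries were higher, by a log2 fold change of 3.02 ± 0.10 (SE).

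Calb2, which encodes the calcium-binding protein calretinin, was at 47.7 to 51.1 CPM against 5.45 to 6.005 CPM in experiment 3 and at 16.7 to 19.3 against 3.55 to 4.86 CPM in experiment 4 (log2 fold change 2.62 ± 0.07, SE). Egr1, an early response gene downstream of ERK, was at 148, 161 and 182 CPM in Ago2 knockout and 20.7, 22.6 and 22.9 CPM in labelled Upf1 knockout in experiment 3, and at 135, 139 and 132 against 44.5, 44.2 and 43.0 CPM in experiment 4. Its groups were apart in both, with a log2 fold change of 2.26 ± 0.04 (SE). Notum (2.40), which encodes a secreted Wnt inhibitor, Actn3 (2.40), an actinin gene, Dpysl3 (2.34) and Gap43 (1.90), both known from growing axons, Fgf15 (1.97), a growth factor gene, Hs3st3b1 (1.93), a heparan sulfate sulfotransferase gene, Tgm3 (2.15), a transglutaminase gene, and Mobp (1.98), a myelin gene, made up the rest. The 2 genes with predicted names were Gm16229 at 1.08 ± 0.09 (SE) and Gm13889 at 1.01 ± 0.11.

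Comparison with HA-Tnrc6a lysates placed these 24 genes on either side. Of the 12 genes higher in labelled Upf1 knockout, Zfas1 was at -0.11 in Ago2 knockout and 2.31 in labelled Upf1 knockout, Snhg5 at -0.12 and 1.89, Rassf1 at -0.21 and 1.76, and Pea15a at -0.25 and 1.66. Ddit3 (-0.66 and 1.57) and Txnip (-0.78 and 1.26) also moved in Ago2 knockout, though by less than in labelled Upf1 knockout. Of the 12 genes higher in Ago2 knockout, Calb2 was at 0.30 in Ago2 knockout and -2.32 in labelled Upf1 knockout, Egr1 at 0.25 and -2.01, Tgm3 at 0.17 and -1.98, and Lef1 at 0.77 and -2.43. Notum was the gene of this group with the larger value in Ago2 knockout, 1.48 against -0.92, and Ccnd2 had 1.33 and -1.69. Both comparisons use the same HA-Tnrc6a libraries.

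**Figure D2:**
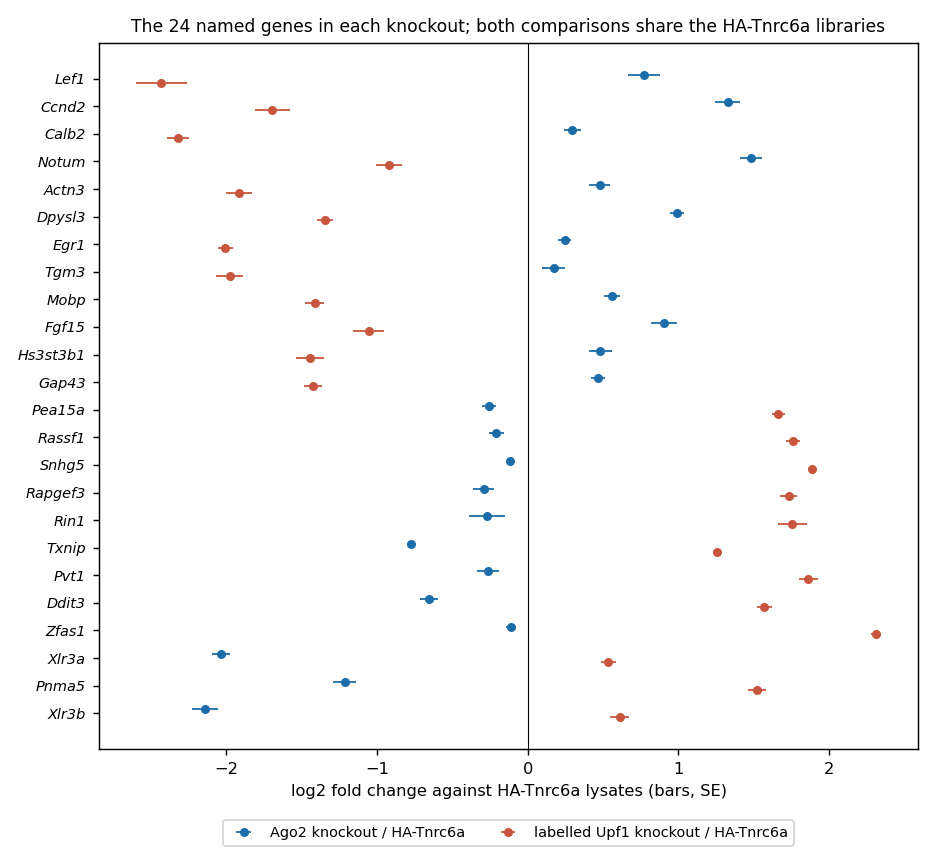
Log2 fold change of the 24 named genes (y axis) against HA-Tnrc6a lysates (x axis), with SE as bars, in Ago2 knockout (blue) and in cells labelled Upf1 knockout (red). For most genes the red point is farther from 0, as for Zfas1 (-0.11 and 2.31), while Xlr3a, Xlr3b and Notum lie farther out in Ago2 knockout.

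Reported targets of nonsense-mediated decay were higher in labelled Upf1 knockout as a rule. Of 27 targets tested, 21 were higher in labelled Upf1 knockout, against 30.9% of all genes, 3 were higher in Ago2 knockout and 3 did not pass. Their median log2 fold change was -0.62 against 0.02 over all genes tested, with -0.59 in experiment 3 and -0.65 in experiment 4. After Zfas1, Ddit3 and Rassf1 came Gadd45b, a stress-induced gene that activates MAP kinase signalling, at -1.89 ± 0.07 (SE), with 33.1 to 36.5 CPM against 7.18 to 10.0 CPM in experiment 3 and 14.4 to 16.6 against 4.13 to 4.88 CPM in experiment 4. Eif4a2 (-1.04), a translation initiation helicase gene, Gas5 (-1.01), a snoRNA host, and Sat1 (-0.78), a polyamine enzyme gene, were also higher there. Against HA-Tnrc6a lysates the list's median was -0.04 in Ago2 knockout and 0.54 in labelled Upf1 knockout.

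The exceptions were Ptbp2, Slc7a11 and Rpl3. Ptbp2, which encodes the neuronal homologue of a splicing repressor and carries an exon whose skipping leads to decay, was at 41.9, 37.4 and 44.0 CPM in Ago2 knockout and 15.7, 12.6 and 16.6 CPM in labelled Upf1 knockout in experiment 3, and at 43.4, 44.0 and 42.1 against 15.4, 14.9 and 18.9 CPM in experiment 4. Its log2 fold change was 1.42 ± 0.06 (SE), with 0.59 in Ago2 knockout and -0.83 in labelled Upf1 knockout against HA-Tnrc6a lysates. Slc7a11, the cystine transporter gene, was at 0.82 ± 0.14 (SE) and Rpl3, a ribosomal protein gene, at 0.13 ± 0.02. Gene-level counts do not separate the isoform that is degraded from the others.

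Among snoRNA host genes, 14 of 21 tested were higher in labelled Upf1 knockout, against 30.9% of all genes. In Ago2 knockout 2 were higher and 5 did not pass, with a median of -0.53. By at least 2-fold, 9 were higher in labelled Upf1 knockout, against 4% of all genes. Besides Zfas1 and Snhg5 these were Snhg6 (-1.54 ± 0.03, SE), at 131 to 184 CPM against 42.6 to 65.5 CPM, Snhg12 (-1.42 ± 0.03), Epb41l4aos (-1.31), Snhg8 (-1.22), Snhg15 (-1.21), Snhg1 (-1.18) and Gas5 (-1.01). Dancr (0.44 ± 0.06, SE) and Mir17hg (0.61 ± 0.05) were higher in Ago2 knockout. Mir17hg is on the list and in its counts, but it is the host of the miR-17 microRNA cluster rather than of snoRNAs. Snhg3 (-0.01), Snhg20 (-0.05) and Taf1d (0.01) did not pass. Zfas1, Gas5, Snhg1, Snhg12 and Snhg15 belong to both this list and that of reported decay targets. snoRNA genes lie inside these loci, so reads of snoRNA precursors could enter the counts.

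**Figure D3:**
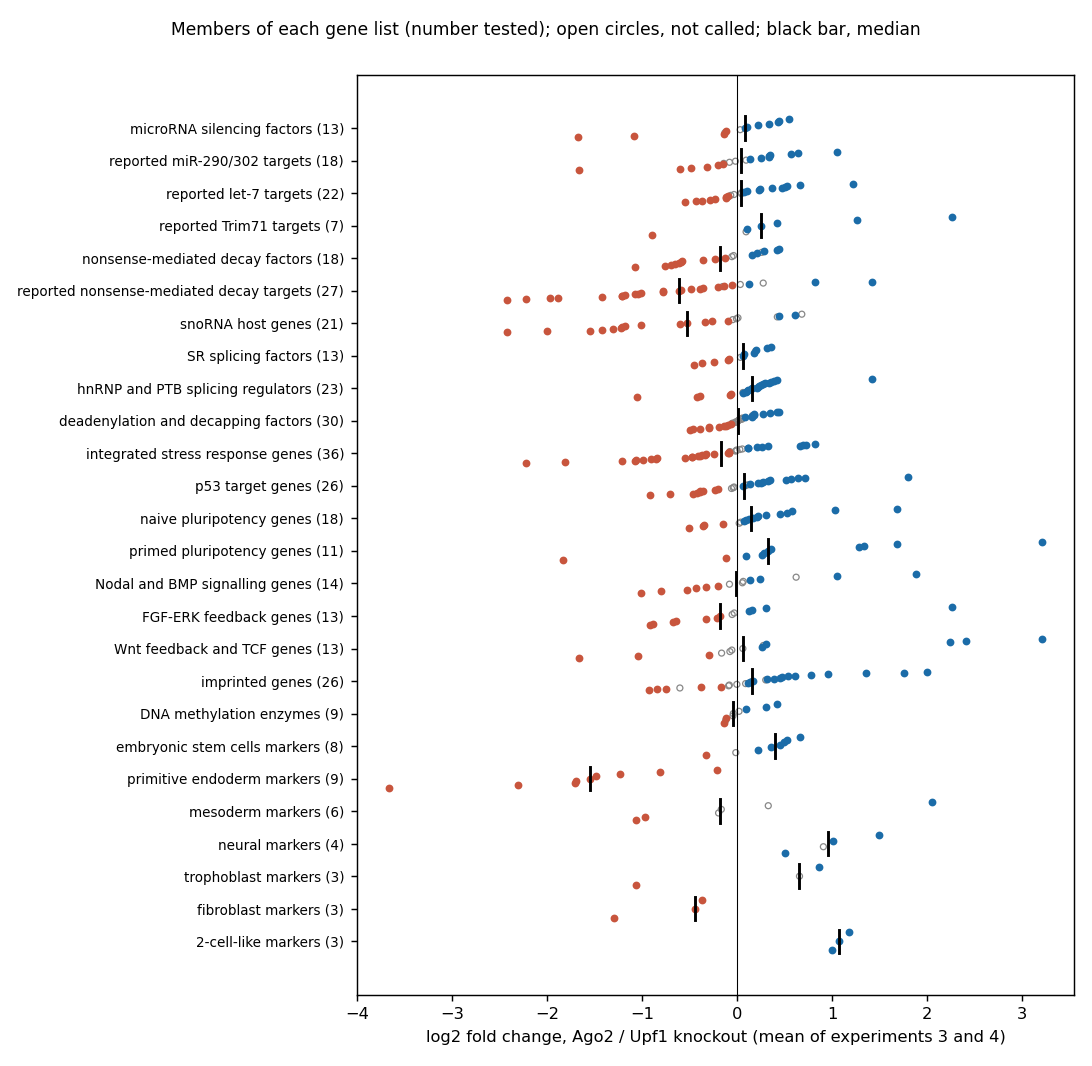
Each point is a tested member of a gene list (y axis, number tested in brackets) with its log2 fold change of Ago2 knockout over labelled Upf1 knockout (x axis); filled points passed an adjusted p of 0.05, open circles did not, and the black bar is the median. Decay targets (median -0.62), snoRNA hosts (-0.53) and primitive endoderm markers (-1.55) lie to the left, and neural markers (0.96) and primed pluripotency genes (0.33) to the right.

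The factors of nonsense-mediated decay were not uniform. Of 18 tested, 10 were higher in labelled Upf1 knockout and 5 in Ago2 knockout (30.9% and 31.4% of all genes), with a median of -0.18. The 10 included Upf1 itself and SMG genes, whose proteins phosphorylate Upf1 or act after its phosphorylation: Smg9 (-1.07 ± 0.05, SE), Smg1 (-0.76 ± 0.04), Smg6 (-0.70 ± 0.04) and Smg5 (-0.61). Smg1, the kinase gene, was at 146, 144 and 163 CPM in labelled Upf1 knockout and 91.2, 102 and 92.9 CPM in Ago2 knockout in experiment 3, and at 192, 173 and 195 against 108, 102 and 101 CPM in experiment 4, with no overlap. Upf2 (-0.66 ± 0.03), the partner that binds Upf1, was at 102 to 110 against 69.5 to 76.6 CPM in experiment 3 and at 133 to 141 against 78.9 to 83.7 CPM in experiment 4. Core genes of the exon junction complex went the other way, with Eif4a3 at 0.44 ± 0.03 (SE), Magoh at 0.42 ± 0.04 and Rbm8a at 0.21 ± 0.03, while its subunit Casc3 was at -0.36. Rbm8a was at 0.35 in experiment 3 and 0.07 in experiment 4, and its groups were not apart in both. Experiment 4 alone did not call Rbm8a (edgeR quasi-likelihood adjusted p = 0.06245). Smg8 (0.28 ± 0.04) and Nbas (0.15) were the remaining genes higher in Ago2 knockout. In Ago2 knockout against HA-Tnrc6a lysates Smg1, Smg6 and Upf2 were at 0.03 to 0.04, and in labelled Upf1 knockout at 0.81, 0.74 and 0.69.

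**Figure D4:**
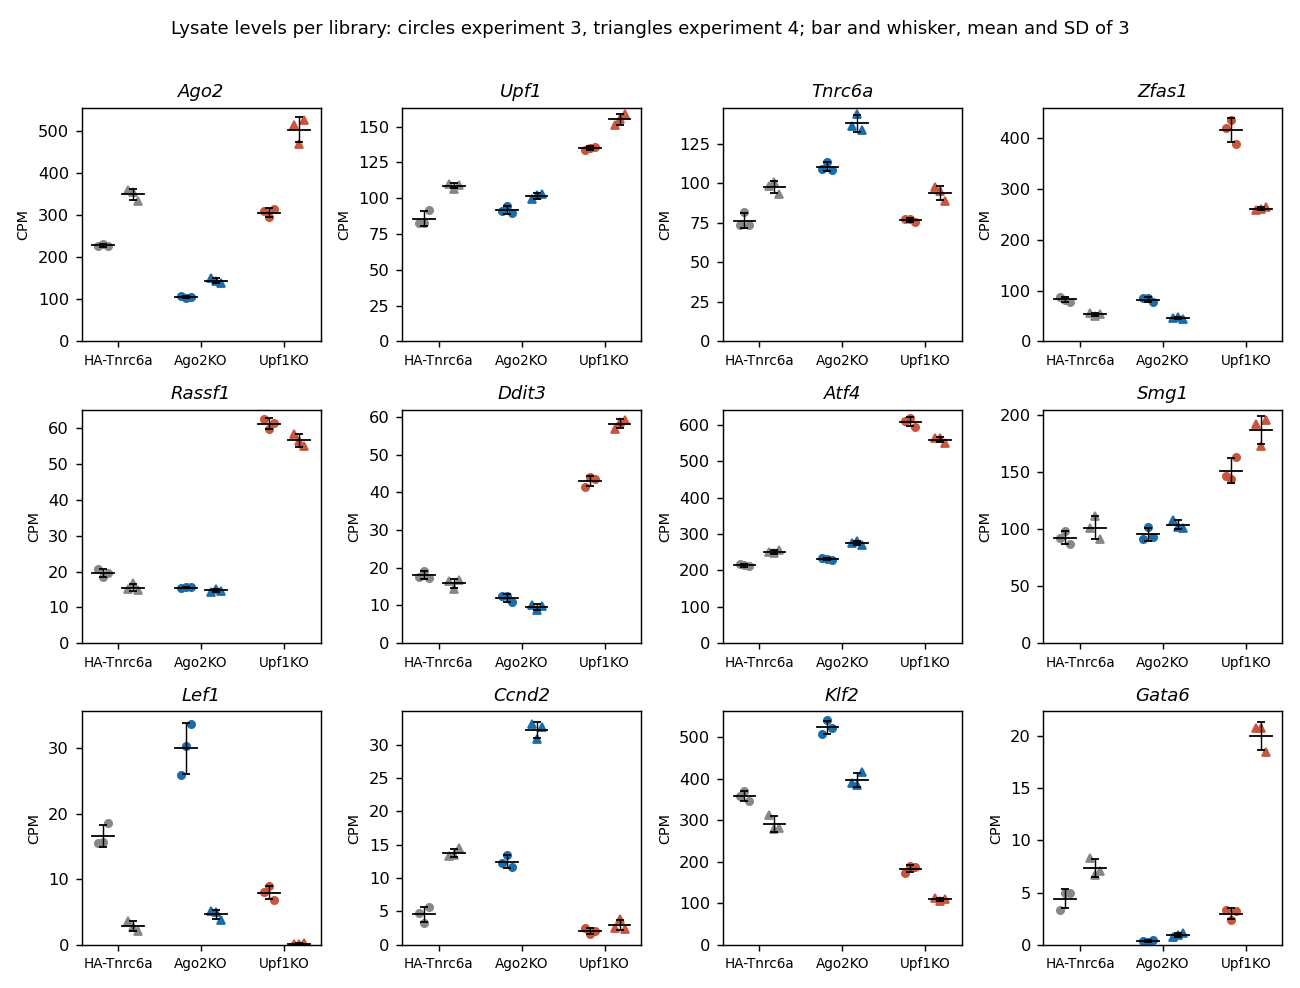
CPM (y axis) of 12 genes in each lysate library of HA-Tnrc6a, Ago2 knockout (Ago2KO) and labelled Upf1 knockout (Upf1KO) cells, with circles for experiment 3, triangles for experiment 4, and mean and SD of 3 libraries as bars. Upf1 is highest in the cells labelled Upf1 knockout, and Zfas1, Rassf1, Atf4 and Smg1 differ from HA-Tnrc6a mainly there.

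Genes of the integrated stress response, which the transcription factor ATF4 drives when translation initiation is restrained, were split. Of 36 tested, 21 were higher in labelled Upf1 knockout, 9 in Ago2 knockout and 6 did not pass, with a median of -0.17. All genes had 30.9% higher in labelled Upf1 knockout and 31.4% in Ago2 knockout. Atf4 itself was at 610, 620 and 595 CPM in labelled Upf1 knockout and 234, 231 and 229 CPM in Ago2 knockout in experiment 3, and at 562, 564 and 550 against 275, 282 and 269 CPM in experiment 4. Those groups were well apart, and its log2 fold change was -1.21 ± 0.02 (SE, n = 3 per group and experiment, edgeR quasi-likelihood adjusted p = 4.24e-41). Nupr1 (chromosome 7, 126623246 to 126625470), a stress-induced chromatin protein gene, followed Ddit3 at -1.81 ± 0.05 (SE), with 83.5 to 96.1 CPM against 22.2 to 31.9 CPM. Atf3 was at -1.07 ± 0.10 and lower in CPM, with 5.71 to 6.01 against 1.94 to 2.65 CPM in experiment 3 and 10.3 to 12.2 against 6.09 to 6.59 CPM in experiment 4. The regulators Ddit4 (-1.06), Trib3 (-0.99), Chac1 (-0.85) and Ppp1r15a (-0.84) were also higher in labelled Upf1 knockout.

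Members with roles in amino acid supply and tRNA charging lay on both sides. Slc7a5 (-0.90) and Slc3a2 (-0.47), which encode an amino acid transporter, Aldh18a1 (-0.48), of proline synthesis, Mthfd2 (-0.41), a mitochondrial folate enzyme gene, and Nars (-0.39) and Wars (-0.25), tRNA synthetase genes, were higher in labelled Upf1 knockout. Asns (-0.02), the asparagine synthetase gene, Pycr1 (-0.01), a proline synthesis gene, and Aars (-0.00), a tRNA synthetase gene, did not pass the test, Psat1 (0.11) and Psph (0.26), of serine synthesis, were higher in Ago2 knockout, and so were Slc7a3 (0.72 ± 0.03, SE), Stc2 (0.70 ± 0.05) and Vldlr (0.67 ± 0.14). Slc7a11 (0.82) had the largest value of this list toward Ago2 knockout. Slc7a11, Atf4, Atf3 and Ddit3 are also on the list of reported decay targets.

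Promoters of both kinds of stress gene hold the letters that ATF4 and C/EBP proteins recognise together, and the stretches around them are shown to set genes that differed beside a gene that did not. They come from RefSeq (GRCm38.p6) and read 5′ to 3′ on the strand of the gene, ending at or before its start, with the match to TGATGNAA on either strand in capitals.
Nupr1, chr7:126625547-126625606, minus strand: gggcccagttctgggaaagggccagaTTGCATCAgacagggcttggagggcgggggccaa
Chac1, chr2:119351023-119351082, plus strand: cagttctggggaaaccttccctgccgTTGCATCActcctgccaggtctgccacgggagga
Atf3, chr1:191183410-191183469, minus strand: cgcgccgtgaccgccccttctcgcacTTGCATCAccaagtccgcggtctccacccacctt
Herpud1, chr8:94386291-94386350, plus strand: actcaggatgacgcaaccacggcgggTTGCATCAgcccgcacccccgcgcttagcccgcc
Asns, chr6:7693210-7693258, minus strand: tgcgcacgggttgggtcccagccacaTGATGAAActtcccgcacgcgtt
Nupr1, Chac1, Atf3 and Herpud1 (-0.34) were higher in labelled Upf1 knockout, and Asns was the gene that did not pass. In windows from 250 bases before to 50 after the start, 11 of the 31 stress genes with a promoter entry held the letters (35.5%), against 325 of 11870 tested genes with an entry (2.74%). By outcome these were 5 of 17 stress genes higher in labelled Upf1 knockout, 3 of 8 higher in Ago2 knockout and 3 of 6 not called. Counts this small cannot show whether the share differs by direction, which was not tested. Among all genes higher by at least 2-fold they stood in 3.67% for labelled Upf1 knockout and 3.2% for Ago2 knockout. Ddit3 and Atf4 had no match, which says only that these letters are not in that window.

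Reported targets of the miR-290 and miR-302 microRNAs showed no common direction in this contrast. Of 18 tested, 8 were higher in Ago2 knockout and 6 in labelled Upf1 knockout (31.4% and 30.9% of all genes), with a median of 0.04. Lefty1, which encodes an antagonist of Nodal, was at 25.7, 20.9 and 21.2 CPM in Ago2 knockout against 12.75, 12.77 and 12.96 CPM in experiment 3 and at 5.60, 5.80 and 5.28 against 2.22, 2.09 and 2.49 CPM in experiment 4. All Ago2 knockout libraries were higher, with a log2 fold change of 1.05 ± 0.09 (SE). Ei24 (0.63 ± 0.03), a p53-induced gene, was at 201 to 225 CPM against 130 to 145 CPM. Bcl2l11 (0.57 ± 0.05), which encodes the cell death protein BIM, and Lats2 (0.35 ± 0.10), a Hippo kinase gene, were also higher, and Cdkn1a, which encodes the cell cycle inhibitor p21, was at 0.25 ± 0.04. On the other side were Dkk1 (-1.66 ± 0.51, SE), a Wnt inhibitor gene, Rhoc (-0.49 ± 0.04), a small GTPase gene, and Akt1 (-0.32 ± 0.04), a kinase gene. Dkk1 was scarce, with an average log2 CPM of -1.11. Its groups were not apart in both experiments, and its values there were -0.66 and -2.67.

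These values combine both knockouts. Against HA-Tnrc6a lysates the list's median was 0.16 in Ago2 knockout and -0.04 in labelled Upf1 knockout. Rhoc was at -0.00 and 0.49 and Akt1 at 0.26 and 0.58, with the larger value in labelled Upf1 knockout, while Dkk1 was at -2.73 and -1.06. Lefty1 (1.21 and 0.17) and Ei24 (0.51 and -0.12) had moved mainly in Ago2 knockout.

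Reported let-7 targets were divided as well, with 10 of 22 higher in Ago2 knockout, 8 higher in labelled Upf1 knockout and a median of 0.04. The all-gene shares in these directions were 31.4% and 30.9%. Mycn (1.22 ± 0.03, SE), a growth-promoting transcription factor gene, was at 184 to 194 CPM against 82.0 to 88.3 CPM in experiment 3 and at 144 to 152 against 59.5 to 62.7 CPM in experiment 4. Sall4 (0.66 ± 0.03), a pluripotency gene, Myc (0.52 ± 0.05) and Igf2bp2 (0.51 ± 0.03), an mRNA-binding protein gene, were higher too, and Arid3a (-0.55 ± 0.06), Insr (-0.43 ± 0.07), Hras (-0.37 ± 0.04) and Cdc25a (-0.28 ± 0.03) were lower. Against HA-Tnrc6a lysates the let-7 list's median was 0.03 in Ago2 knockout and -0.10 in labelled Upf1 knockout. Each let-7 target just named had the larger change in labelled Upf1 knockout. Examples are Mycn (0.32 in Ago2 knockout and -0.90 in labelled Upf1 knockout), Sall4 (0.20 and -0.46), Myc (0.05 and -0.47) and Arid3a (0.08 and 0.63). Of 7 reported targets of Trim71, an RNA-binding protein of stem cells, 5 were higher in Ago2 knockout (Egr1, Mbnl1 at 1.26 ± 0.10, E2f7 at 0.42 ± 0.05, Cdkn1a and Rbl1 at 0.10) and 1 was higher in labelled Upf1 knockout, Mbnl2 at -0.90 ± 0.05. For Mbnl1, which encodes a splicing regulator, the value against HA-Tnrc6a lysates was -0.09 in Ago2 knockout and -1.35 in labelled Upf1 knockout.

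Among the microRNA silencing factors, 7 of 13 were higher in Ago2 knockout and 4 in labelled Upf1 knockout, against 31.4% and 30.9% of all genes. The latter count was near the share over all genes. All 3 Tnrc6 genes were among the former, with Tnrc6c at 0.43 ± 0.03 (SE) and Tnrc6b at 0.33 ± 0.04 beside Tnrc6a. Dgcr8 (0.43 ± 0.03), a subunit gene of the nuclear microRNA processing complex, and Ago1 (0.22) were also higher, while Ago3 (0.03) did not pass. Against HA-Tnrc6a lysates Dgcr8 was at 0.11 in Ago2 knockout and -0.32 in labelled Upf1 knockout. Besides Ago2, Ago4 (-1.09 ± 0.29), Xpo5 (-0.14 ± 0.03), the export factor of microRNA precursors, and Dicer1 (-0.11 ± 0.03) were higher in labelled Upf1 knockout. The groups of Ago4, Xpo5 and Dicer1 were not apart in both experiments. Experiment 3 alone did not call these genes (edgeR quasi-likelihood adjusted p = 0.0769, 0.114 and 0.604). Ago4 was also scarce, with an average log2 CPM of -0.24. Deadenylation and decapping factors, which act downstream of Tnrc6 proteins, gave 9 and 10 of 30 in the directions of Ago2 and labelled Upf1 knockout and a median of 0.01. Both counts were near the shares over all genes (31.4% and 30.9%), so they are no feature of this list. Cnot4 (0.44), Cnot6l (0.42) and Cnot11 (0.35) of the CCR4-NOT complex were higher in Ago2 knockout, and the decapping genes Dcp2 (-0.50 ± 0.03) and Dcp1a (-0.47 ± 0.04) in labelled Upf1 knockout. Set against HA-Tnrc6a lysates, Cnot4 was at 0.07 in Ago2 knockout and -0.37 in labelled Upf1 knockout. Cnot6l (0.34 and -0.08) and Cnot11 (0.21 and -0.14) had the larger value in Ago2 knockout, and Dcp2 (-0.03 and 0.47) and Dcp1a (-0.10 and 0.37) in labelled Upf1 knockout.

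Many splicing regulators control their own mRNA through exons that trigger decay. Of 23 hnRNP and PTB genes, 17 were higher in Ago2 knockout, against 31.4% of all genes, and 5 in labelled Upf1 knockout, with a median of 0.16. Hnrnpu (0.42 ± 0.03, SE), Hnrnpab (0.38 ± 0.03) and Hnrnpc (0.36 ± 0.03) followed Ptbp2, and Hnrnph3 (-1.05 ± 0.04), Tia1 (-0.43 ± 0.05) and Hnrnpdl (-0.39 ± 0.03) had the larger values on the other side. Hnrnph3 was at 61.3 to 63.9 CPM in labelled Upf1 knockout against 27.1 to 31.4 CPM in experiment 3 and at 68.1 to 75.3 against 31.6 to 36.8 CPM in experiment 4. The median of the hnRNP and PTB list against HA-Tnrc6a lysates was 0.03 in Ago2 knockout and -0.16 in labelled Upf1 knockout. Of 13 SR genes, 6 were higher in Ago2 knockout, Srsf6 (0.36 ± 0.02) and Srsf2 (0.31 ± 0.02) most, and 5 in labelled Upf1 knockout, Srsf4 (-0.46 ± 0.03) and Tra2a (-0.37 ± 0.03) most.

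Pluripotency genes lay toward Ago2 knockout. Of 18 naive pluripotency genes, 12 were higher in Ago2 knockout and 4 in labelled Upf1 knockout, with a median of 0.14. Over all genes the shares in these directions were 31.4% and 30.9%. Klf2, a naive state transcription factor gene, was at 508, 540 and 523 CPM in Ago2 knockout and 173, 189 and 187 CPM in labelled Upf1 knockout in experiment 3, and at 388, 384 and 416 against 113, 106 and 111 CPM in experiment 4. The groups were far apart (log2 fold change 1.68 ± 0.03, SE, n = 3 per group and experiment, edgeR quasi-likelihood adjusted p = 6.15e-45), and HA-Tnrc6a lysates lay between them. Prdm14 (0.57 ± 0.04), Zfp42 (0.52 ± 0.02) and Nanog (0.45 ± 0.02) were higher as well. Nanog stood at 824 to 860 CPM against 663 to 680 CPM in experiment 3 and at 937 to 949 against 629 to 642 CPM in experiment 4. Socs3 (-0.51 ± 0.03), a feedback inhibitor of LIF signalling, Klf4 (-0.36 ± 0.02), Klf5 (-0.35 ± 0.03) and Tcl1 (-0.15 ± 0.04) were higher in labelled Upf1 knockout. Of 8 embryonic stem cell markers 6 were higher in Ago2 knockout, among them Sox2 (0.49 ± 0.02), and Tdgf1 (-0.32 ± 0.02) was lower.

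Of 11 genes of the primed state, which follows the naive state in the embryo, 9 were also higher in Ago2 knockout. In labelled Upf1 knockout 2 were higher, and the median was 0.33. The shares of all genes were 31.4% and 30.9%. Zic2 (1.68 ± 0.06, SE) was at 36.9 to 39.0 CPM against 12.3 to 15.6 CPM in experiment 3 and at 28.1 to 30.6 against 6.97 to 8.31 CPM in experiment 4. Sox3 (1.33 ± 0.19) and Cdh2 (1.28 ± 0.15), the N-cadherin gene, followed Lef1 and Zic2. Wnt8a (-1.84 ± 0.48) and Dnmt3b (-0.12 ± 0.03) went the other way. Against HA-Tnrc6a lysates the primed list's median was 0.06 in Ago2 knockout and -0.47 in labelled Upf1 knockout, and the naive list's was 0.11 and -0.06.

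Signalling targets were mixed. Among Wnt feedback and TCF genes, 5 of 13 were higher in Ago2 knockout and 3 in labelled Upf1 knockout. Sp5, a direct Wnt target, was at 2.24 ± 0.35 (SE), beside Lef1 and Notum, whereas Cdx1 (-1.05 ± 0.09) and the scarce Dkk1 were higher in labelled Upf1 knockout. Among Nodal and BMP genes, Id2 (1.88 ± 0.12) was at 9.97 to 10.3 CPM against 2.85 to 5.05 CPM in experiment 3 and at 5.85 to 6.71 against 1.17 to 1.40 CPM in experiment 4. Bmp4 (-1.01 ± 0.05), the ligand gene, and Id1 (-0.80 ± 0.06), a BMP target, were higher in labelled Upf1 knockout, so the 2 Id genes went in opposite directions. Of 13 FGF-ERK feedback genes, 7 were higher in labelled Upf1 knockout, Spry1 (-0.92 ± 0.06), Etv4 (-0.88 ± 0.03), Dusp6 (-0.67 ± 0.03) and Dusp4 (-0.64 ± 0.08) most, and 4 in Ago2 knockout, Egr1 most. Of 26 p53 targets, 12 were higher in Ago2 knockout, including Perp (0.71 ± 0.09) and Ccng1 (0.57 ± 0.03). In labelled Upf1 knockout 9 were higher, including Pmaip1 (-0.92 ± 0.03), which encodes the cell death protein NOXA, and Sesn1 (-0.70 ± 0.07). For comparison with these lists, 31.4% of all genes were higher in Ago2 knockout and 30.9% in labelled Upf1 knockout.

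Of 26 imprinted genes, which are expressed from 1 parental allele, 14 were higher in Ago2 knockout and 5 in labelled Upf1 knockout. Among all genes the shares were 31.4% and 30.9%. The list's median was 0.16. Magel2 (2.00 ± 0.23, SE), Dlk1 (1.76 ± 0.16), Cdkn1c (1.35 ± 0.08), a cyclin-dependent kinase inhibitor gene, and Grb10 (0.95 ± 0.03), a growth inhibitor gene, had the larger values. Grb10 was at 337 to 373 CPM against 147 to 160 CPM in experiment 3 and at 498 to 517 against 307 to 316 CPM in experiment 4. For Magel2, Dlk1 and Cdkn1c, the values against HA-Tnrc6a lysates were 0.08, 0.18 and -0.02 in Ago2 knockout and -1.92, -1.58 and -1.37 in labelled Upf1 knockout. Sgce (-0.93 ± 0.13) and its neighbour Peg10 (-0.75 ± 0.03) were both higher in labelled Upf1 knockout. Of 9 DNA methylation and demethylation enzymes, Tet2 (0.42 ± 0.03), Dnmt1 (0.30 ± 0.03) and Dnmt3a (0.10 ± 0.03, not called with scaling by library totals, adjusted p = 0.226 in the same edgeR quasi-likelihood test) were higher in Ago2 knockout, Dnmt3l (-0.14 ± 0.03) and Dnmt3b in labelled Upf1 knockout, and 4 did not pass.

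Markers of other cell types moved with the genotypes. All 9 tested primitive endoderm markers were higher in labelled Upf1 knockout, with a median of -1.55, and 7 of them by at least 2-fold. Over all genes these shares were 30.9% and 4%. Gata6, a founding transcription factor of that lineage, was at 0.364, 0.314 and 0.491 CPM in Ago2 knockout and 3.32, 2.38 and 3.27 CPM in labelled Upf1 knockout in experiment 3, and at 0.719, 0.950 and 1.17 against 20.8, 20.7 and 18.5 CPM in experiment 4. The groups did not overlap, and the log2 fold change was -3.66 ± 0.16 (SE, n = 3 per group and experiment, edgeR quasi-likelihood adjusted p = 9.72e-27). Sox17 (-2.31 ± 0.25), Sox7 (-1.71 ± 0.17), Cubn (-1.69 ± 0.17), Pdgfra (-1.55), Dab2 (-1.48) and Gata4 (-1.24 ± 0.10) followed. The median was -0.65 in experiment 3 and -2.23 in experiment 4. The summed CPM of all 10 markers overlapped in experiment 3, at 52.2 to 55.3 in Ago2 knockout and 49.4 to 55.5 in labelled Upf1 knockout, and did not in experiment 4, at 56.2 to 66.5 against 162 to 172. HA-Tnrc6a lysates had 155 to 164 in experiment 3 and 122 to 141 in experiment 4, and untagged lysates 61.7 to 68.1 and 129 to 134. Against HA-Tnrc6a lysates the list's median was -1.77 in Ago2 knockout and -0.32 in labelled Upf1 knockout. In experiment 3 Pdgfra (0.09) and Lama1 (0.47), the most abundant of them, did not share the direction, and that experiment alone called 4 markers higher in labelled Upf1 knockout and 1 in Ago2 knockout. The part of these cells' RNA in the other results was not tested.

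Of 4 neural markers tested, 3 were higher in Ago2 knockout, with a summed level of 113 to 123 CPM against 53.2 to 71.0 CPM over both experiments: Pax6 (1.49 ± 0.25, SE), Tubb3 (1.01 ± 0.03) and Sox1 (0.50 ± 0.08). For this and the following short lists, the shares over all genes were 31.4% higher in Ago2 knockout and 30.9% in labelled Upf1 knockout. All 3 fibroblast markers tested were higher in labelled Upf1 knockout, Pdgfrb (-1.30 ± 0.08) most, with a sum of 51.2 to 64.1 CPM against 30.2 to 41.8 CPM. Of 6 mesoderm markers, Kdr (2.05 ± 0.30) was higher in Ago2 knockout and Eomes (-1.07 ± 0.09) and Hand1 (-0.97 ± 0.25) in labelled Upf1 knockout. Those mesoderm counts were near or below the shares over all genes. The summed level of the 7 mesoderm markers in the table was 8.68 to 10.9 CPM in Ago2 knockout and 12.2 to 12.6 CPM in labelled Upf1 knockout in experiment 3, and 11.1 to 11.4 against 18.7 to 22.3 CPM in experiment 4, with no overlap. Of 3 trophoblast markers tested, Ascl2 (0.86 ± 0.13) was higher in Ago2 knockout and Eomes, which is on both lists, lower. The 3 Zscan4 genes that mark 2-cell-like cells were higher in Ago2 knockout, at 0.99 to 1.17, but their sum was under 2 CPM in each of the 12 libraries. Zscan4c lost the call without Ago2 knockout replicate 3 of experiment 3 or labelled Upf1 knockout replicate 3 of experiment 4 (edgeR quasi-likelihood adjusted p = 0.0595 and 0.0527), and Zscan4d without that same Ago2 knockout replicate or labelled Upf1 knockout replicate 2 of experiment 3 (adjusted p = 0.05245 and 0.0549). Col1a1, a fibroblast marker at -0.37, lost it without Ago2 knockout replicate 3 of experiment 4 (adjusted p = 0.0609).

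The contrast was not the same in both experiments for every gene. Of the 19419 genes, 2544 (13.1%) passed the test of the difference between the experiments, 1542 with a more positive value in experiment 3 and 1002 with a more negative one. For 949 of them the signs were opposite. Across all genes the 2 sets of values had a Pearson's r of 0.705, where genes are not independent replicates, and 95.9% of the called genes had the same sign in both, which selection on their average favours. Among genes with an average log2 CPM of at least 3, Gata4, Hmga2 and Col4a2 were named for their positive differences, and the scarcer Pdgfra (3.27), Sox17 (2.41), Cubn (2.22) and Gata6 (1.46) also had large ones. Hmga2, a chromatin protein gene and let-7 target, was at 13.1, 12.5 and 16.3 CPM in Ago2 knockout and 8.14, 9.65 and 7.37 CPM in labelled Upf1 knockout in experiment 3, but at 20.0, 18.8 and 21.1 against 38.9, 33.8 and 36.4 CPM in experiment 4. It was higher in Ago2 knockout in the first and lower in the second (log2 fold change 0.73 and -0.87), so the average of -0.07 describes neither. Col4a2, a basement membrane collagen gene, was at -0.62 and -2.02 and Gata4 at -0.24 and -2.23. Lef1, Slc27a2 (0.81 and 2.65), a fatty acid transport gene, and Actn3 (1.56 and 3.23) were named by the same rule in the other direction.

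FGF-ERK feedback genes differed between the experiments most often among the signalling lists, in 10 of 13 genes against 13.1% of all genes. Dusp6, a phosphatase gene that limits ERK, was at 43.3, 44.2 and 47.5 CPM in Ago2 knockout and 45.5, 46.0 and 47.6 CPM in labelled Upf1 knockout in experiment 3, where the groups overlapped, and at 70.7, 67.5 and 68.6 against 167, 173 and 167 CPM in experiment 4. Spry4, another feedback inhibitor, was higher in Ago2 knockout in experiment 3 (0.61) and lower in experiment 4 (-0.36). The deadenylase adaptor genes Tob1 (0.33 and -0.93) and Btg2 (0.12 and -0.91) and the methylation cofactor gene Dnmt3l (-0.48 and 0.21) also had opposite signs. Of 18 naive pluripotency genes 12 passed this test, and of 26 p53 targets 14. Of 27 reported decay targets 9 did, and the list's median was negative in both experiments. Whether the dishes or the culture state differed between the experiments was not tested.

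RNA was also recovered from these lysates with HA beads, which bind the tagged Tnrc6a. In that material 10794 of 18886 genes (57.2%) differed between Ago2 knockout and labelled Upf1 knockout. Among genes at least 2-fold higher in Ago2 knockout lysates, 575 of the 589 also tested in the immunoprecipitates (97.6%) had the same sign there, and among those higher in labelled Upf1 knockout 699 of 710 (98.5%), against 76% of all genes. The lysate is the source of both measurements, so this is no independent repeat. Examples of genes that differed in sign, chosen after their values were seen, are the reported miR-290 or miR-302 targets Ei24 and Bcl2l11 and the p53 target Ccng1. Ei24 was at 0.63 in lysates and -0.24 in immunoprecipitates, Bcl2l11 at 0.57 and -0.93, and Ccng1 at 0.57 and -0.51, that is, higher in Ago2 knockout lysates and lower among the RNAs recovered from them.

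Recovery with Tnrc6a was taken from HA-Tnrc6a and untagged libraries, which do not enter the contrast, as at least 2-fold enrichment over the untagged background. It was met by 3294 of 19993 genes (16.5%), and by 16.2% of the genes tested here. Among genes at least 2-fold higher in Ago2 knockout 19.8% were so enriched (131 of 661), and among those at least 2-fold higher in labelled Upf1 knockout 12% (90 of 752). Cdkn1a (5.80), Mbnl1 (4.36), Ei24 (3.92), Bcl2l11 (3.39), Txnip (3.37) and Lefty1 (2.87) are examples with high log2 enrichment, and Zfas1 (-1.16), Snhg5 (-0.88) and 2410006H16Rik (-1.05) lay below the background. The genes at least 2-fold higher in labelled Upf1 knockout were shorter, with a median length of 2734.5 bases against 3747 bases for those higher in Ago2 knockout and 3375 bases for all tested. Of those with an annotated type 10.5% were long noncoding RNAs, against 5.43% and 4.22%. Both 2-fold sets were scarce RNAs, with median average log2 CPM of 1.18 and 0.06, for labelled Upf1 and Ago2 knockout, against 3.70 for all genes, and length and abundance were not separated from these shares.

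Medians per chromosome stayed between -0.05 and 0.08 for each autosome. Genes of the X chromosome had a median of 0.17, with 0.15 and 0.16 in experiments 3 and 4. Of 601, 264 (43.9%) were higher in Ago2 knockout and 131 (21.8%) in labelled Upf1 knockout, against 31.4% and 30.9% of all genes. Against HA-Tnrc6a lysates the median of the X chromosome was 0.04 in Ago2 knockout and -0.11 in labelled Upf1 knockout. Xlr3a, Xlr3b and Pnma5 were among the 131. Of 13 genes of the mitochondrial genome 9 were higher in Ago2 knockout and none in labelled Upf1 knockout. Their median was 0.30, with 0.43 in experiment 3 and 0.13 in experiment 4. Set against HA-Tnrc6a lysates, the median of the mitochondrial genome was 0.06 in Ago2 knockout and -0.27 in labelled Upf1 knockout, so the larger part lay in the latter. The share of all counts from that genome was 1.80 to 2.17% in Ago2 knockout and 1.48 to 1.58% in labelled Upf1 knockout in experiment 3, and 1.83 to 1.96% against 1.64 to 1.70% in experiment 4. CYTB (0.83), ATP6 (0.76) and ND3 (0.89), subunit genes of the respiratory chain and ATP synthase, are examples, while ND5 (0.09) did not pass. Of 9 genes on the Y chromosome 6 were higher in labelled Upf1 knockout and 1 in Ago2 knockout. Zfy1 (-1.44), Zfy2 (-1.52) and Kdm5d (-1.97) were low in Ago2 knockout, at -1.25, -1.11 and -2.21 against HA-Tnrc6a lysates, whereas Ddx3y (-0.01) did not pass and Uty (0.09) was slightly higher in Ago2 knockout.

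**Figure D5:**
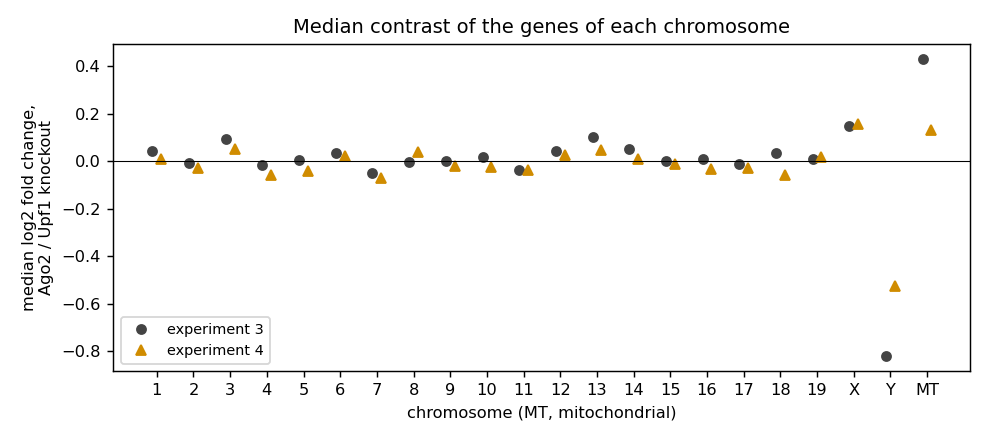
Median log2 fold change of Ago2 knockout over labelled Upf1 knockout (y axis) over the genes of each chromosome (x axis), with circles for experiment 3 and triangles for experiment 4. The autosomes lie near 0, the X chromosome at 0.15 and 0.16, the mitochondrial genome (13 genes) above 0 and the Y chromosome (9 genes) below it.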

How the data were processed

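RNA was sequenced from lysates with a stranded total RNA kit, per the labels' protocols. Reads were handled with bcl2fastq 2.20 and STAR 2.7.3a on GRCm38 (mm10), per the submitters' processing notes; the counting settings are not given in the sources used here. The authors deposited raw counts per gene for 20171 genes, beside each gene's length in bases (file headers); 48 further columns were not used. Columns 1 to 3 were read as experiment 3 and 4 to 6 as experiment 4, which the headers do not state. Counts were fitted with edgeR 4.0.16 (limma 3.58.1, R 4.3.3): TMM, filterByExpr with a minimum count of 10, robust quasi-likelihood, 1 coefficient per genotype and experiment, contrasts averaged over experiments, Benjamini-Hochberg adjustment over all genes, threshold 0.05. Standard errors come from the fit. DESeq2 1.42.0 served as an alternative.

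Members and the 26 gene lists were chosen with earlier results of these data known. Named genes are Ago2, Upf1 and Tnrc6a, then per direction the 12 with the largest change among genes called, apart in both experiments and of average log2 CPM of at least 3 (2 per direction with predicted or clone names), up to 4 called members per list and direction, and 3 per direction for the difference between experiments, with the same minimum of abundance and rule on names. Other genes named were chosen after their values were seen. The deposited table named 16427 genes, and the reference 3725 more. Simulated counts were used to test the fit. A few list members are counted in the lists but not reported here by name.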

Additional observations from a re-analysis of the deposited data

Results flagged for a closer look

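The difference between Ago2 knockout and labelled Upf1 knockout was itself different in experiments 3 and 4 for 80 of the 207 genes named above, in edgeR's quasi-likelihood test of that difference with Benjamini-Hochberg adjustment over all genes. Each value below is the log2 fold change in experiment 3 minus that in experiment 4. For 10 of these genes the signs were opposite, and for 70 the direction was the same and the size differed.

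The value was positive, with the larger differences first, for Pdgfra (3.27), Sox17 (2.41), Cubn (2.22), Gata4 (2.00), Hmga2 (1.61), Gata6 (1.46), Col4a2 (1.41), Lama1 (1.35), Egr1 (1.28), Dusp6 (1.26), Tob1 (1.26) and Pmaip1 (1.08). Smaller positive values were those of Calb2 (1.04), Btg2 (1.03), Spry4 (0.97), Pvt1 (0.84), Ddit3 (0.77), Eomes (0.76), Spry1 (0.66), ND3 (0.64), Gm27286 (0.54), ND5 (0.54), Snhg12 (0.53) and Bmp4 (0.53). Below these came Grb10 (0.53), Dusp4 (0.51), Id1 (0.50), 2410006H16Rik (0.47), Myc (0.43), Gas5 (0.42), Snhg8 (0.38), Ccng1 (0.38), Srsf4 (0.37), Igf2bp2 (0.32), Socs3 (0.31) and Klf5 (0.31). The positive values closest to 0 were those of Trim71 (0.30), Asns (0.30), Rbm8a (0.28), Ppp1r15a (0.28), Etv4 (0.28), Ago2 (0.28), Snhg5 (0.27), Rhoc (0.23), Upf2 (0.22), Cnot11 (0.20) and Dicer1 (0.20).

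The value was negative, with the larger differences first, for Lef1 (-2.58), Slc27a2 (-1.84), Actn3 (-1.67), Cdkn1c (-1.43), Gap43 (-1.05), Chac1 (-0.94), Tgm3 (-0.92), Ccnd2 (-0.88), Mobp (-0.82), Id2 (-0.82), Pnma5 (-0.79) and Zfy1 (-0.77). Smaller negative values were those of Notum (-0.75), Peg10 (-0.72), Dnmt3l (-0.70), Xlr3b (-0.60), Fgf15 (-0.58), Zic2 (-0.53), Dpysl3 (-0.45), Gm15441 (-0.43), Tubb3 (-0.43), Prdm14 (-0.42), Txnip (-0.40) and Atf4 (-0.36). The negative values closest to 0 were those of Dcp2 (-0.33), Klf2 (-0.32), Hnrnpdl (-0.26), Tnrc6b (-0.25), Nanog (-0.23), Srsf2 (-0.22), Slc7a3 (-0.20), Mthfd2 (-0.20) and Aldh18a1 (-0.16).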

How the results depend on the processing

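With the experiments not told apart, the calls fell from 12104 to 6940 (3289 higher in Ago2 knockout, 3651 in labelled Upf1 knockout), and a test against a 2-fold minimum passed 493 genes where 1460 were called and at least 2-fold. Leaving out 1 library at a time gave 11667 to 11933 calls, 5824 to 5967 higher in Ago2 knockout, 5804 to 5966 higher in labelled Upf1 knockout, 1483 to 1587 of at least 2-fold, and 1991 to 2505 genes that differed between experiments. Scaling by library totals gave 5082 and 6933 calls in these directions and moved the median of all genes by -0.06. DESeq2 made 11856 calls, the RLE scaling 12136, no filter 12190, all 24 inputs in 1 fit 12006, experiment 3 alone 8896 and experiment 4 alone 11026. Against HA-Tnrc6a lysates, leaving out HA-Tnrc6a replicate 3 of experiment 3, chosen after seeing the data, gave 5880 calls for Ago2 knockout (6176 with it) and 10813 for labelled Upf1 knockout (11296 with it).

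The sign reversed in experiment 3 alone for Ptbp3 (0.010), Btg2 (0.10), Tob1 (0.31) and Hmga2 (0.72), and in experiment 4 alone for Spry4 (-0.36) and Dnmt3l (0.21); the cause was not tested. With the experiments not told apart, fewer members of several lists passed as higher in Ago2 knockout: 2 p53 targets against 12, 5 naive pluripotency genes against 12, 3 primed genes against 9, 3 targets of the miR-290 and miR-302 microRNAs against 8 and 4 let-7 targets against 10. In the same fit 2 deadenylation and decapping factors against 10 and 2 FGF-ERK feedback genes against 7 passed as higher in labelled Upf1 knockout. Of the 176 genes given by the naming rules, 122 kept their direction and side of the threshold under every alternative. With the experiments not told apart 40 lost their call, in experiment 3 alone 17 and in experiment 4 alone 7. Dicer1, Xpo5, Lats2, Tcl1 and Hand1 were among those lost in experiment 3 alone, and Dnmt3b in experiment 4 alone. Dnmt3a lost its call with library totals, and Ptbp3 with RLE, DESeq2 and 7 of the 12 libraries left out in turn. Same-numbered samples correlated with a mean r of 0.05 (-0.06 to 0.17) and differently numbered ones with a mean r of -0.03. So few pairs cannot settle whether the numbers pair the samples, and the main fit did not pair them. A replicate block gave 12242 calls, 6166 and 6076 by direction, 1466 of at least 2-fold and 2914 for the difference between experiments. The alternative with the authors' scaling factors was not run. Depth limits genes under about 1 CPM, such as the Zscan4 genes.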
